A study of Mus musculus with 13 samples.

Results

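The hypoxia-inducible factor (HIF) pathway was followed through 10 genes in RNA tagged in the kidney proximal tubule of mice. They were taken by symbol from a table of estimated counts that holds 35013 gene symbols. They encode the oxygen-regulated alpha subunits (Hif1a, Epas1), the prolyl hydroxylases that mark them (Egln1, Egln2, Egln3), the protein that recognizes the mark (Vhl) and targets whose transcription HIF can raise (Vegfa, Ndrg1, Ankrd37, Adm). All 10 passed the filter on low counts that left 16468 genes for testing.

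The RNA came from 13 female mice in 3 groups. Every mouse carried Megalin3'Cre-Ert, an inducible Cre under the megalin promoter, and a floxed Uprt allele on 1 chromosome, whose enzyme lets Cre-expressing cells build 4-thiouracil into new RNA, and tamoxifen was given to all groups. The group named Spns1 KO (n = 4) was Spns1 flox/flox. The group named WT (n = 5) is labelled Spns1 wild-type, although the study's methods describe these littermates as Spns1 flox/+. The group named FeO (n = 4), called a dietary model in the labels, had the WT genotype and received 12 mg of iron as iron sucrose by injection on each of 3 days, with the kidneys taken 1 week later. Age was not given in the sources used here. The study asked whether iron overload, through loss of the transporter gene Spns1 or through injected iron, alters the RNA of iron-responsive genes.

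Prolyl hydroxylases use oxygen, iron(II) and 2-oxoglutarate to hydroxylate the alpha subunits of HIF, which the VHL ubiquitin ligase then sends to the proteasome. When hydroxylation slows, the alpha subunit accumulates, pairs with the beta subunit encoded by Arnt and binds DNA at the core letters ACGTG or GCGTG. Control of the alpha subunits is largely at the protein level, so their messages and their activity are separate quantities, and this experiment measured only messages. In the kidney, HIF-driven erythropoietin comes from interstitial cells, whereas tubular cells are known mainly for the Hif1a product.

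Total counts ranged from 23068023 to 37362311 in WT, from 31809135 to 71296474 in the libraries labelled Spns1 KO and from 25986133 to 29981814 in FeO, with mitochondrial genes taking 11.8% to 26.8% of a library. The targeted gene did not separate the groups: Spns1 was at 36.6 to 59.0 CPM (the count relative to the library total, scaled with TMM factors) in the libraries labelled Spns1 KO and at 39.2 to 62.9 CPM in WT (log2 fold change -0.31, standard error 0.18, edgeR adjusted p = 0.225). The floxed part of the gene is around exon 3, and a gene-level count takes in all exons, so this is a limited check of the labels. Groups are therefore named by their labels, and every direction given for Spns1 KO rests on those labels. The tissue label was checked on 8 proximal tubule markers, none of which was at 0 in any library. Their summed level was 2704 to 3751 CPM in WT, 5645 to 6440 CPM in Spns1 KO and 1734 to 3874 CPM in FeO. Markers of other kidney cells were also detected, at 242 to 295 CPM in WT for 8 endothelial genes and at 1975 to 4483 CPM for 8 genes of the loop, distal tubule and collecting duct. The latter sum was 3354 to 4419 CPM in Spns1 KO. In FeO 1 to 4 it was 5371, 2148, 2825 and 5425 CPM, beside 1734, 3874, 3475 and 2546 CPM for the proximal tubule markers. The tagged RNA was captured from whole kidney. In such RNA, the purity of capture, the tagging, the number of cells of a type and the RNA per cell cannot be told apart.

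The HIF core letters were searched on both strands of the RefSeq promoter windows (GRCm38.p6, from 250 bases before to 50 bases after the start) because several of these genes are known to be regulated by HIF. Windows were given for 8 of the 10 genes, and 8 of their 10 windows held at least 1 match, whereas 43.8% of all 32851 promoter windows did (19.6% for ACGTG and 32.4% for GCGTG). Both sets of core letters contain the pair CG. The windows of these genes were 49.3% to 86% G and C, with 4 to 60 CG pairs. The share over all windows was not matched for base content, so the shares do not show an excess of HIF sites. Single stretches are shown for 3 targets and for the hydroxylases, Egln2 beside its inducible paralogs, with the core letters, on either strand, in capitals.
Egln1, chr8:124949306-124949334, minus strand: gggccgtggtgtACGTGcagcgcgcgcgg
Egln2, chr7:27166834-27166862, minus strand: agcctcctgtcaACGTGcggttcgcgcac
Egln3, chr12:54204087-54204115, minus strand: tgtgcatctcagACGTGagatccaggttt
Vegfa, second window, chr17:46025365-46025393, minus strand: aagccctggagtGCGTGccCACGTcagag
Ankrd37, chr8:45999840-45999868, minus strand: cagtgtttgggtACGTGaggccgcagcgg
Adm, chr7:110627555-110627583, plus strand: tttagaagcaagCACGCtggagagggagg
The match began 229 bases before the RefSeq start in Egln3 and 68 bases before it in Egln1. The most matches, 6, were in the first window of Egln2, where CACGTG, which reads the same on both strands, was counted on each. The second window of Vegfa, from 46025114 to 46025413, lies inside the annotated gene. The bases checked after its start were not found in a transcript of Vegfa. The Ankrd37 window, from 45999801 to 46000100, also lies inside the annotated gene, and the Egln1 stretch overlaps the annotated start of Egln1. No match was found in the window of Vhl or the first window of Vegfa, which says only that these letters are not in those windows. These matches are descriptions of sequence, and binding was not measured.

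In WT the 10 messages covered a wide range of levels. Compared per kilobase of the longest coding transcript, Ndrg1, which encodes an iron- and stress-responsive cytosolic protein, was highest at 1461 ± 376 CPM per kilobase (SD, n = 5). Vegfa, the vascular growth factor, followed at 75.3 ± 3.95, then Hif1a at 52.4 ± 13.8, Epas1 at 38.4 ± 3.13, Egln2 at 30.3 ± 7.76, Egln1 at 13.2 ± 1.25 and Vhl at 10.5 ± 0.79 CPM per kilobase. Adm, the vasodilator adrenomedullin, was at 5.02 ± 1.51, Egln3 at 3.79 ± 0.84 and Ankrd37, an ankyrin-repeat protein, at 1.64 ± 0.68 CPM per kilobase. In 4 of the 9 neighbouring pairs of this order the WT values overlapped, namely Vegfa with Hif1a, Hif1a with Epas1, Epas1 with Egln2, and Adm with Egln3. With the median transcript length in place of the longest coding one, Vhl moved ahead of Egln2 and the rest of the order was kept.

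**Figure D1:**
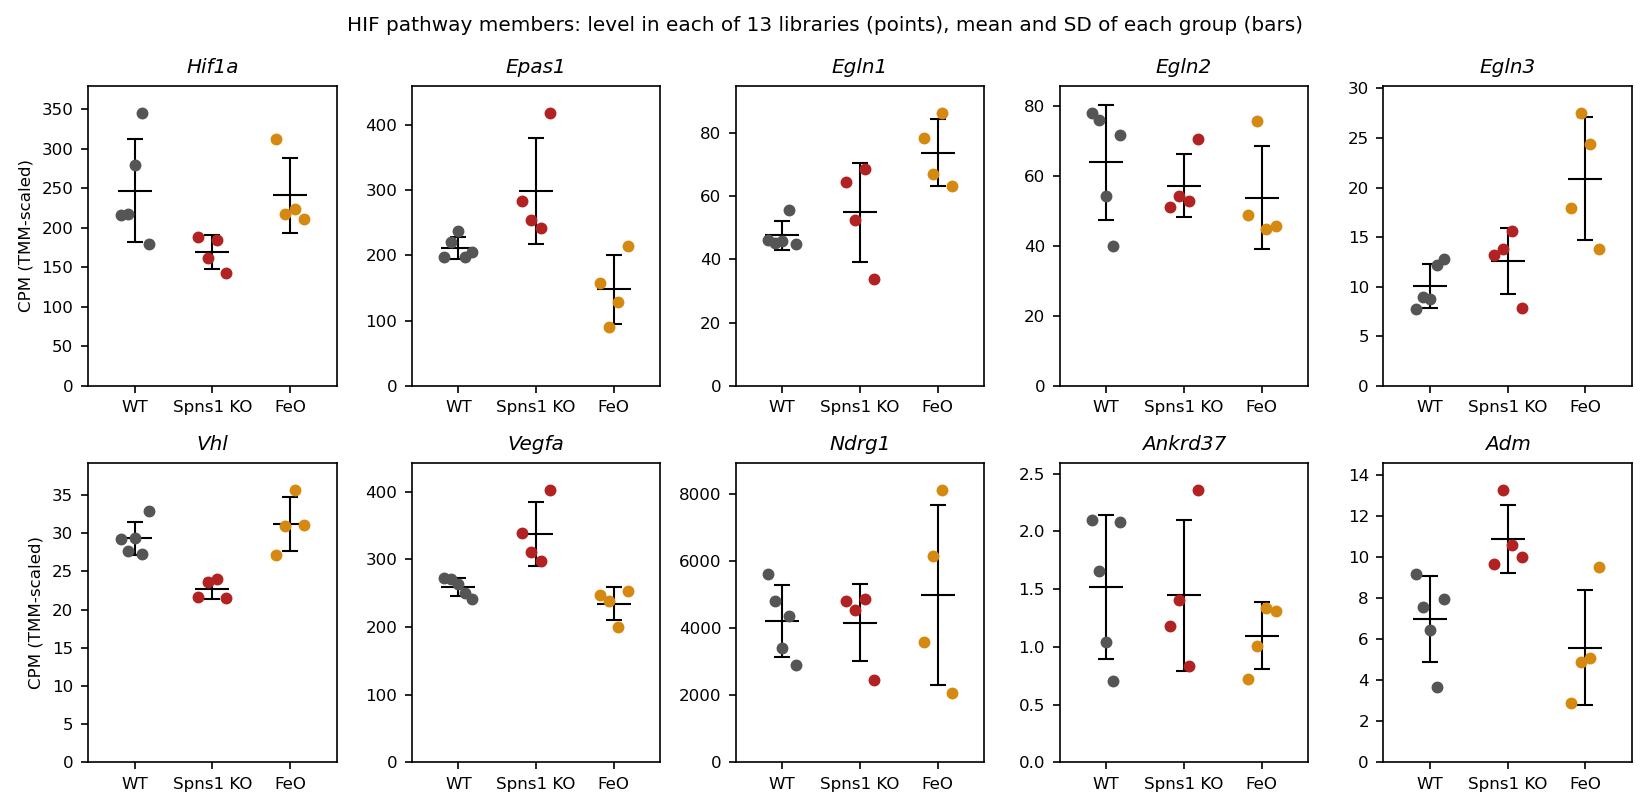
Level of each of the 10 genes (CPM scaled with TMM factors, linear axes from 0) in every library. Points are libraries and bars are the mean and SD of WT (n = 5), Spns1 KO (n = 4) and FeO (n = 4). All 4 FeO points lie above all WT points for Egln1 and Egln3, and all 4 Spns1 KO points lie above all WT points for Epas1, Vegfa and Adm and below them for Vhl.

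The first comparison was of libraries labelled Spns1 KO with WT, where none of the 10 genes passed the limits of edgeR's quasi-likelihood test (Benjamini-Hochberg adjusted p under 0.05 and a log2 fold change beyond 0.5), against 21.6% of all genes tested. At an unadjusted p under 0.05 there were 5 of the 10 (Hif1a, Epas1, Vhl, Vegfa and Adm), against 37.1% of all genes tested. DESeq2 called 1 of the 10, Hif1a, against 23.7% of the genes it gave an adjusted p, and limma-voom called 0, against 23.1%. In 4 of the 10 the libraries did not overlap with WT, against 22.4% of all genes tested: Epas1, Vegfa and Adm lay above WT, and Vhl lay below.

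The second comparison was of FeO with WT, which shares the WT libraries with the first. Egln1 and Egln3 rose in FeO with edgeR, so that 2 of the 10 passed, against 42.2% of all genes tested. None fell in that edgeR test, whereas Epas1 was called lower by limma-voom (-0.58, adjusted p = 0.0426) and without FeO 4 or Spns1 KO 4, and removing the length and GC trend added Ankrd37 and Adm. Egln1 and Egln3 were also those whose libraries did not overlap with WT, against 33.4% of all genes tested. The share of members that passed lay below the background in both models. By unadjusted p and by overlap of libraries it lay above the background in Spns1 KO and below it in FeO. With only 10 genes these counts are small, and whether the members differ from the background was not tested.

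Both models were then compared with each other in the same fit. Epas1 and Vegfa were higher in Spns1 KO than in FeO, so that 2 of the 10 passed, against 14.9% of all genes tested called either way and 6.76% called higher. At an unadjusted p under 0.05 with edgeR there were 7 of the 10, against 32.9% of all genes tested. In 5 of the 10 the models did not overlap, against 17.4% of all genes tested, with Epas1, Vegfa and Adm higher and Hif1a and Vhl lower in Spns1 KO.

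**Figure D2:**
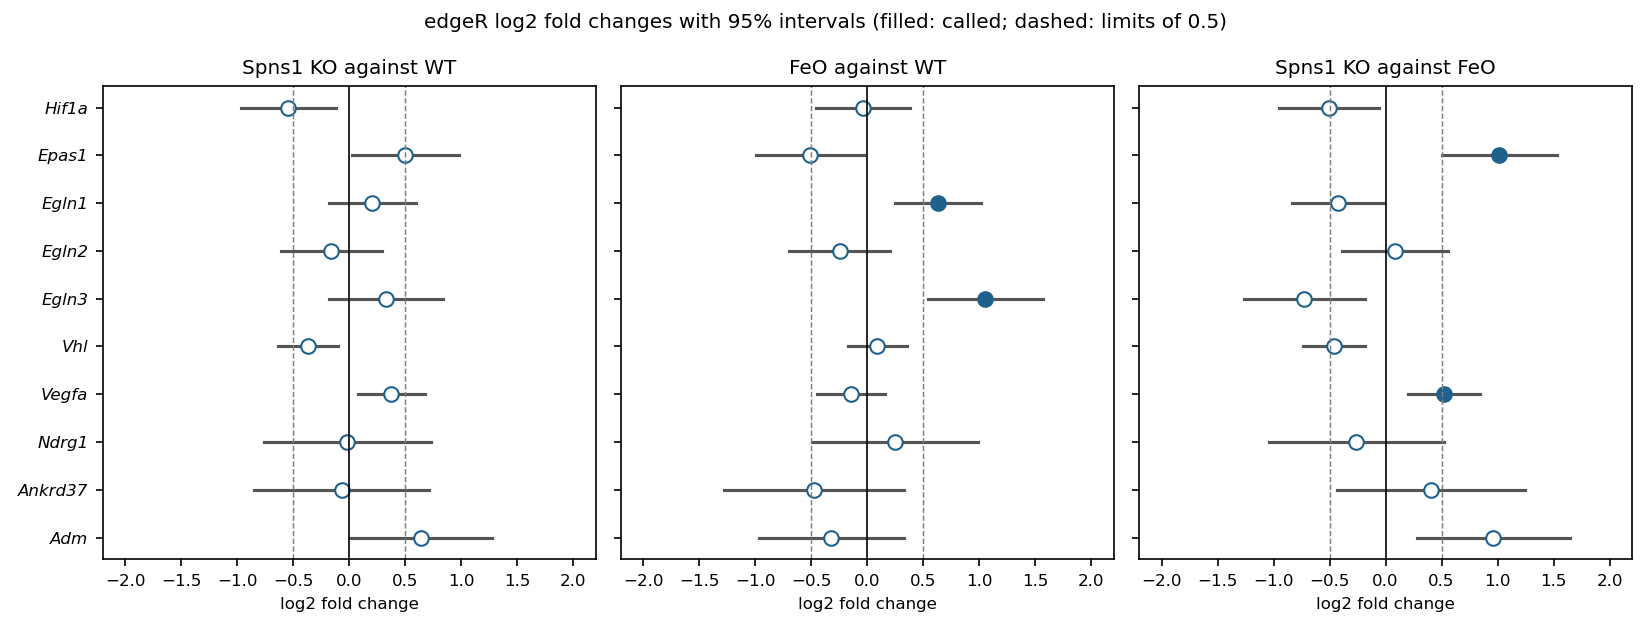
edgeR log2 fold change of each of the 10 genes (points) with its 95% interval (bars) for Spns1 KO against WT, FeO against WT and Spns1 KO against FeO. Filled points passed an adjusted p of 0.05 and the fold limit of 0.5 (dashed lines). None is filled in Spns1 KO against WT, Egln1 and Egln3 are filled in FeO against WT, and Epas1 and Vegfa in Spns1 KO against FeO.

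Hif1a encodes the broadly expressed alpha subunit. It lies on chromosome 12 from 73901375 to 73947530 of GRCm38. Its level was 216, 217, 279, 345 and 179 CPM in WT 1 to 5. It was 188, 162, 185 and 143 CPM in the libraries labelled Spns1 KO 1 to 4 and 312, 217, 224 and 211 CPM in FeO 1 to 4. Hence 2 of the 4 Spns1 KO libraries lay below all of WT, the FeO values lay inside the WT range, and the models did not overlap. The log2 fold change of Spns1 KO against WT was -0.54 (standard error 0.20, 95% interval -0.97 to -0.12) and missed the limit with an edgeR adjusted p of 0.0595. It passed with DESeq2 (adjusted p = 0.0375), with upper-quartile factors (0.0453), with library totals alone (0.0318), without WT 5 (0.0383) and without FeO 1 (0.0494). It shrank to -0.26 with the length and GC trend removed (adjusted p = 0.328) and to -0.38 without WT 4 (0.149). In FeO it was -0.04 (standard error 0.20, 95% interval -0.46 to 0.38).

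Epas1 encodes the alpha subunit known from endothelial and interstitial cells. It lies on chromosome 17 from 86753700 to 86833410. Its level was 198, 221, 237, 197 and 205 CPM in WT 1 to 5. It was 283, 254, 242 and 418 CPM in Spns1 KO 1 to 4, every value above WT, and 158, 90.1, 129 and 215 CPM in FeO 1 to 4. In FeO, 3 of the 4 libraries lay below all of WT, and FeO 4 lay within it. Against WT, Epas1 had a log2 fold change of 0.50 in Spns1 KO (standard error 0.22, edgeR adjusted p = 0.117) and of -0.51 in FeO (standard error 0.23, adjusted p = 0.0762), and neither passed. The FeO value was -0.16 with the length and GC trend removed (adjusted p = 0.564) and -0.32 without FeO 2 (0.217). The difference between the models was 1.02 on the log2 scale (standard error 0.24, 95% interval 0.51 to 1.53, edgeR adjusted p = 0.0134). It remained past the limits without each library in turn (0.81 to 1.25) and was lost only when the 2 groups were fitted without WT (1.01, adjusted p = 0.0603).

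Markers of cells known to express Epas1 were set beside it. The summed level of the 8 endothelial markers was 360 to 392 CPM in Spns1 KO and 213 to 392 CPM in FeO, beside 242 to 295 CPM in WT. For 6 fibroblast and pericyte markers it was 158 to 203 CPM in Spns1 KO, 72.8 to 160 CPM in FeO and 93.2 to 138 CPM in WT. In Spns1 KO, 4 of the 8 endothelial and 3 of the 6 fibroblast and pericyte markers rose and none fell, and so did 6 of the 8 proximal tubule markers (background for genes called higher, 14.0%). In FeO, where Epas1 was low in 3 libraries, 2 of the 8 endothelial markers rose and 1 fell (list median 0.27), and 0 of the 6 fibroblast and pericyte markers passed with edgeR (list median -0.06). The backgrounds in FeO were 22.4% for genes called higher and 19.7% for genes called lower. None of these markers was at 0 in any library, and their part in the Epas1 values was not tested.

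The balance of the alpha subunit messages was described by the ratio of Epas1 to Hif1a counts, each per kilobase, which does not depend on the scaling of libraries. It was 0.79, 0.87, 0.73, 0.49 and 0.98 in WT 1 to 5. It was 1.29, 1.34, 1.12 and 2.51 in Spns1 KO 1 to 4 and 0.43, 0.35, 0.49 and 0.87 in FeO 1 to 4. Every library labelled Spns1 KO lay above every other library, with means of 1.57 ± 0.64 (SD, n = 4) in Spns1 KO, 0.77 ± 0.18 (SD, n = 5) in WT and 0.54 ± 0.23 (SD, n = 4) in FeO. That order does not depend on the transcript lengths used, but the position relative to 1 does. Without division by length the ratio was above 1 in WT 2 (1.02), WT 5 (1.14) and FeO 4 (1.02) as well, and with median transcript lengths it was 0.786 to 1.76 in Spns1 KO, 0.343 to 0.687 in WT and 0.249 to 0.614 in FeO. The ratio was looked at after the values of both genes were known, and it was not tested.

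**Figure D3:**
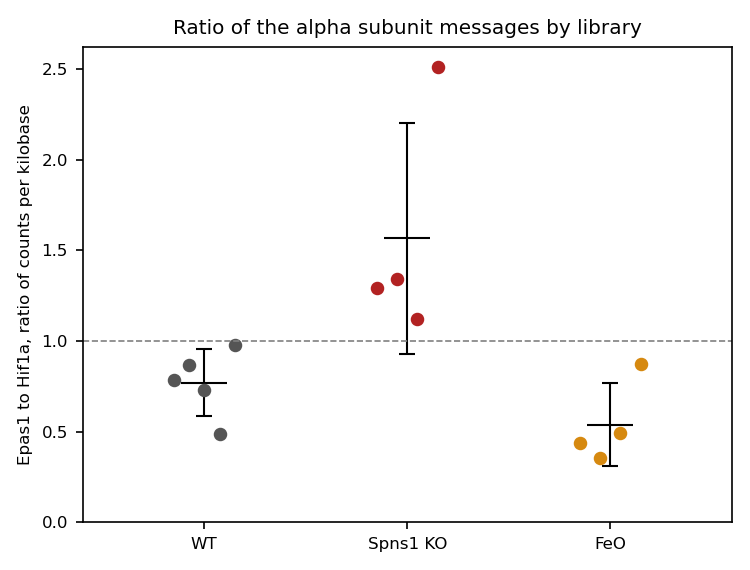
Ratio of Epas1 to Hif1a counts per kilobase in each library (points) with the mean and SD of each group (bars), on a linear axis from 0, with a dashed line at 1, whose place among the points depends on the transcript lengths used. The 4 Spns1 KO libraries lie between 1.12 and 2.51, above the WT libraries at 0.49 to 0.98 and the FeO libraries at 0.35 to 0.87.

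Of the prolyl hydroxylases, Egln1 encodes the main oxygen sensor of most tissues. It lies on chromosome 8 from 124908587 to 124949324. Its level was 46.2, 45.2, 45.8, 55.5 and 44.9 CPM in WT 1 to 5. It was 78.4, 66.9, 86.1 and 63.1 CPM in FeO 1 to 4, every value above WT, and 64.4, 52.5, 68.5 and 33.8 CPM in Spns1 KO 1 to 4, a range that took in all of WT. In FeO, Egln1 rose by 0.63 on the log2 scale (standard error 0.18, 95% interval 0.25 to 1.02, edgeR adjusted p = 0.0116). In Spns1 KO the log2 fold change was 0.21 (standard error 0.18, 95% interval -0.18 to 0.59, adjusted p = 0.427), and the models differed by -0.43 (standard error 0.19, adjusted p = 0.136), which did not pass.

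Egln3 encodes the hydroxylase whose message is known to be strongly inducible by HIF. It lies on chromosome 12 from 54178981 to 54203860. Its level was 7.76, 8.93, 8.76, 12.2 and 12.8 CPM in WT 1 to 5, on 278 to 344 counts. It was 17.9, 27.5, 24.4 and 13.8 CPM in FeO 1 to 4 and 13.2, 13.8, 15.6 and 7.86 CPM in Spns1 KO 1 to 4. Every FeO library was above WT, and 3 of the 4 Spns1 KO libraries were. The FeO change was the largest of the 10 genes at 1.05 (standard error 0.24, 95% interval 0.54 to 1.56), a 2.07-fold rise (edgeR adjusted p = 0.00307). In Spns1 KO it was 0.33 (standard error 0.24, 95% interval -0.19 to 0.84, adjusted p = 0.337), and the models differed by -0.73 (standard error 0.25, adjusted p = 0.0633), which passed with DESeq2 (0.0375) and without FeO 4 (0.0252).

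Egln2, the third hydroxylase, whose message is not known as hypoxia-inducible, lies on chromosome 7 from 27158658 to 27166802. Its level was 39.8 to 77.8 CPM in WT (median 71.5), 51.0 to 70.4 CPM in Spns1 KO (median 53.5) and 44.8 to 75.5 CPM in FeO (median 47.3), and both models lay inside the WT range. Against WT, the log2 values were -0.16 in Spns1 KO (95% interval -0.61 to 0.29) and -0.25 in FeO (95% interval -0.70 to 0.20). The calls for Egln1 and Egln3 in FeO held under every alternative run, with 0.55 to 0.72 for Egln1 and 0.91 to 1.23 for Egln3 when each library was left out in turn.

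Some marker levels moved with the FeO libraries. The summed level of 6 podocyte markers was 294 to 687 CPM in FeO against 171 to 305 CPM in WT, and that of 6 macrophage and leukocyte markers was 77.3 to 103 CPM against 52.4 to 62.1 CPM. In each of these lists 4 of the 6 genes rose in FeO (background for genes called higher, 22.4%) and none fell. Of the 8 loop, distal tubule and collecting duct markers, 3 rose and none fell (list median 0.54). Of the podocyte and leukocyte genes none was at 0 in any library, and their part in the Egln1 and Egln3 values was not tested.

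Vhl encodes the substrate-recognition subunit of the ligase. It lies on chromosome 6 from 113623959 to 113631633. Its level was 29.3, 27.7, 29.4, 27.3 and 32.9 CPM in WT 1 to 5. It was 21.7, 23.6, 24.0 and 21.5 CPM in Spns1 KO 1 to 4, all below WT, and 27.1, 30.9, 35.7 and 31.1 CPM in FeO 1 to 4. It varied little within groups, with coefficients of variation of 7.53% in WT and 5.67% in Spns1 KO. The log2 fold change in Spns1 KO was -0.37 (standard error 0.13, 95% interval -0.64 to -0.10), with an edgeR adjusted p of 0.0434 but short of the fold limit. On the adjusted p alone it was the only 1 of the 10 to pass, against 23.4% of all genes tested, and the count in FeO on that rule was 2, against 45.7%. The adjusted p was above 0.05 without any single Spns1 KO or WT library (0.0538 to 0.128), without FeO 2 (0.0578) or FeO 4 (0.0637), with the replicate number as a block (0.119) and without the filter on low counts (0.172). The fold limit was passed only with library totals alone, at -0.50. The models differed in the same way, by -0.46 (standard error 0.13, edgeR adjusted p = 0.0306; 15.3% of all genes passed on the adjusted p alone). That adjusted p was above 0.05 without Spns1 KO 1, 2 or 4 or FeO 3, with the replicate block, without the filter and with the 2 groups alone (0.0553 to 0.0905). FeO against WT gave 0.09 (95% interval -0.17 to 0.35).

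Among the targets, Vegfa lies on chromosome 17 from 46016993 to 46032369. Its level was 272, 271, 264, 251 and 241 CPM in WT 1 to 5. It was 339, 311, 297 and 403 CPM in Spns1 KO 1 to 4, all above WT, and 247, 238, 200 and 254 CPM in FeO 1 to 4. The FeO values overlapped with the lower end of WT, with 2 of the 4 below all of it. The log2 fold change was 0.38 in Spns1 KO (standard error 0.14, 95% interval 0.07 to 0.68, edgeR adjusted p = 0.0668) and -0.15 in FeO (95% interval -0.45 to 0.16). The models differed by 0.52 (standard error 0.15, edgeR adjusted p = 0.0322), a call that lay close to both limits. It was lost without Spns1 KO 1, 2 or 4 or FeO 1 or 3 (adjusted p from 0.054 to 0.0778), and also without the filter on low counts, with the 2 groups alone and with library totals alone, where the difference was 0.44. The call was lost as well with the replicate number as a block (0.52, edgeR adjusted p = 0.0621). Podocytes are a known source of Vegfa, and the summed level of the 6 podocyte markers was 243 to 306 CPM in Spns1 KO, 171 to 305 CPM in WT and 294 to 687 CPM in FeO; its part in the Vegfa values was not tested.

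Adm lies on chromosome 7 from 110627661 to 110629820. Its level was 9.20, 7.58, 6.46, 3.67 and 7.99 CPM in WT 1 to 5. It was 9.70, 13.3, 10.6 and 10 CPM in Spns1 KO 1 to 4 and 2.89, 4.90, 5.09 and 9.52 CPM in FeO 1 to 4. All Spns1 KO values were above WT and FeO, by a small margin over WT 1 and FeO 4. The log2 fold change in Spns1 KO was 0.64 (standard error 0.30, 95% interval 0.01 to 1.28, edgeR adjusted p = 0.131), and the difference between the models was 0.96 (standard error 0.32, adjusted p = 0.0536), and neither passed. The Spns1 KO value was 0.33 with the length and GC trend removed (adjusted p = 0.412). The difference between the models passed with DESeq2 (0.0214), limma-voom (0.0295), the length and GC trend removed (0.0207), without WT 4 (0.034) and without FeO 4 (0.00922). As with Epas1, the endothelial and the fibroblast and pericyte markers, which include cells known to make Adm, were higher in Spns1 KO, and their part was not tested.

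Ndrg1, whose protein was examined in the study as a readout of iron, lies on chromosome 15 from 66929318 to 66969640. Its level was 5621, 4805, 3420, 4358 and 2895 CPM in WT 1 to 5. It was 4827, 4535, 4876 and 2450 CPM in Spns1 KO 1 to 4, and FeO 1 to 4 had 3601, 6157, 8137 and 2085 CPM. The FeO libraries lay on both sides of WT, with 2 above all of it and 1 below. With 55627 or more counts in each library, counting error was small beside this spread, and the coefficient of variation was 53.8% in FeO against 25.7% in WT. The log2 fold change was -0.02 in Spns1 KO (95% interval -0.76 to 0.73, edgeR adjusted p = 0.978) and 0.24 in FeO (95% interval -0.50 to 0.99, adjusted p = 0.584), so that the interval left room for changes of either sign.

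Ankrd37, known as a HIF-induced message, was measured on 20 to 100 counts per library. It lies on chromosome 8 from 45996902 to 46005707, where Lrp2bp and Ufsp2 overlap it on the other strand, and reads of these genes cannot be told apart unless the counting used strand, which the sources used here do not state. Its level was 0.706 to 2.10 CPM in WT (median 1.66), 0.835 to 2.36 CPM in Spns1 KO (median 1.29) and 0.721 to 1.34 CPM in FeO (median 1.16), and the groups overlapped. Fold changes on the log2 scale were -0.07 in Spns1 KO (95% interval -0.85 to 0.71) and -0.48 in FeO (95% interval -1.28 to 0.33). Overlapping genes on the other strand were also annotated for Hif1a, Egln2, Ndrg1 and Adm. At most 2.04% of the 31-base words of any of the 10 genes occurred in another gene, with each transcript read on its own strand only. That search cannot find words shared with a gene on the other strand, so it does not bear on these overlaps.

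Within groups, single libraries stood at the ends of the range for many of the 10 genes. The library labelled Spns1 KO 4 held the highest or lowest value of its group for 9 of the 10 genes. It had the highest Epas1, Egln2, Vegfa and Ankrd37 and the lowest Hif1a, Egln1, Egln3, Vhl and Ndrg1, and it had the largest mitochondrial share of all libraries, 26.8%. FeO 4 was at an end of its group for 7 of the 10, with the highest Epas1, Vegfa and Adm and the lowest Hif1a, Egln1, Egln3 and Ndrg1. Thus Hif1a, Egln1, Egln3 and Ndrg1 were lowest, and Epas1 and Vegfa highest, in the same library of each model. A count of 7 was not particular to FeO 4. Spns1 KO 3 and WT 4 were also at an end for 7 of the 10, and WT 1, WT 5 and FeO 3 for 6. Without Spns1 KO 4 the log2 fold change of Spns1 KO against WT moved from 0.50 to 0.30 for Epas1, from 0.33 to 0.50 for Egln3 and from 0.21 to 0.38 for Egln1, and none of these passed. Without FeO 4, Epas1 in FeO moved to -0.72 and passed (edgeR adjusted p = 0.0176).

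**Figure D4:**
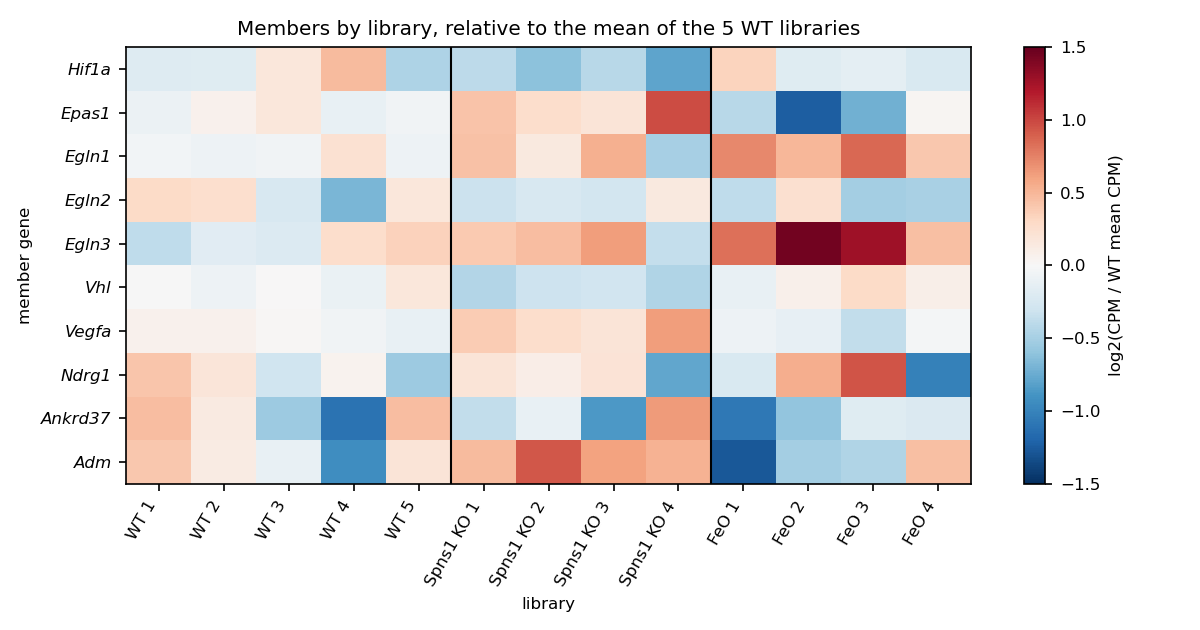
Each of the 10 genes (rows) in each of the 13 libraries (columns), as log2 of its CPM over the mean of the 5 WT libraries (color, from -1.5 to 1.5), with lines between the groups. Egln1 and Egln3 are above the WT mean in all 4 FeO libraries, Epas1 and Vegfa in all 4 Spns1 KO libraries, and Spns1 KO 4 and FeO 4 have low Ndrg1 beside the highest Epas1 of their groups.

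Other genes of the pathway were taken from lists compiled from general knowledge of it, with the median log2 fold change over all genes tested at -0.05 in Spns1 KO and -0.01 in FeO. Among 7 partners and cofactors, none rose in either model. In FeO 5 fell (background for genes called lower, 19.7%), with a list median of -0.88. These were Ep300, a coactivator (241 ± 39.4 CPM in WT and 85.4 ± 15.3 in FeO, SD), Arnt, the beta subunit (122 ± 8.25 and 66.5 ± 9.32), Hif3a, a further alpha subunit (20.2 ± 4.42 and 3.77 ± 2.70), Hif1an, the asparaginyl hydroxylase (117 ± 9.43 and 75.1 ± 6.72), and Crebbp, which the naming rule did not include and which was added after its values were seen. In Spns1 KO 2 fell, Hif1an and Ep300 (background 7.55%), a count that ran from 0 to 5 when each library was left out in turn (5 without Spns1 KO 4). It was 0 with the length and GC trend removed, without the filter and with the 2 groups alone, 3 with limma-voom and with the replicate block, and 4 with library totals alone. Ep300 differed between the models by 0.88 (standard error 0.22, edgeR adjusted p = 0.0171), a call lost without FeO 1 and with the 2 groups alone.

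A further list held 7 genes of the VHL ligase and of ubiquitin-conjugating enzymes (Ube2d1, Ube2d2a and Ube2d3). Of these, 2 rose in Spns1 KO (background for genes called higher, 14.0%) and 4 in FeO (background 22.4%), and none fell. The elongins Elob and Eloc rose in both models. Elob averaged 8.81 ± 0.95 CPM (SD) over the WT libraries, against 25.6 ± 4.53 in Spns1 KO and 22.5 ± 5.73 in FeO, although 20.5% of its 31-base words occurred in other genes. Rbx1 and Ube2d2a rose in FeO and were lower in Spns1 KO than in FeO, by -0.51 and -0.64 on the log2 scale (edgeR adjusted p = 0.0497 and 0.0402), and so was Ube2d1 (-0.54, adjusted p = 0.0461), against 8.10% of all genes called lower. That count of 3 was 0 without Spns1 KO 1 or 2, without WT 1, 2 or 3, without FeO 3, with the replicate block, without the filter and with the 2 groups alone. It was 1 with limma-voom, with the length and GC trend removed and without Spns1 KO 4 or FeO 1.

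Of 20 glycolytic targets, 14 rose and 2 fell in FeO (list median 0.77), and 8 rose and 2 fell in Spns1 KO (list median 0.44). The backgrounds for genes called higher and lower were 22.4% and 19.7% in FeO and 14.0% and 7.55% in Spns1 KO. The smallest adjusted p-values in FeO were those of the aldolases Aldoc (1.72, edgeR adjusted p = 0.000314) and Aldoa (1.45, 0.00051), the triose isomerase Tpi1 (1.42, 0.000566) and the mutase Pgam1 (1.24, 0.00131), and all 4 also rose in Spns1 KO. For Pgam1, 37.1% of the 31-base words occurred in other genes. Among the genes of this list that rose in FeO, that share ran from 0% (Aldoc, Slc2a1 and Hk1) to 54.7% (Pgk1). It was 34.7% for Pkm, 28.5% for Eno1 and 27.2% for Gapdh. The Spns1 KO count was 4, 5 and 4 without Spns1 KO 1, 2 and 3 and 5 with the length and GC trend removed, whereas the FeO count stayed between 11 and 15. When each library was left out, the count that fell lay between 0 and 4 for Spns1 KO and between 0 and 2 for FeO. The models differed in 7 of the 20, all lower in Spns1 KO (background 8.10%): Slc2a1, Hk1, Hk2, Pfkp, Aldoc, Pkm and Slc16a3. That count was 4 without Spns1 KO 2, without FeO 1 and with the 2 groups alone. The glucose transporter Slc2a1 fell in Spns1 KO (64.1 ± 5.41 CPM against 96.0 ± 15.2 in WT) and rose in FeO (157 ± 44.8), a difference of -1.29 on the log2 scale (standard error 0.19, edgeR adjusted p = 0.00215).

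Of 19 mitochondrial and stress targets, 5 rose and 3 fell in Spns1 KO (backgrounds 14.0% and 7.55%), and 6 rose and 5 fell in FeO (backgrounds 22.4% and 19.7%). The mitophagy receptor Bnip3 (0.64 in Spns1 KO and 1.20 in FeO), Fam162a (1.29 and 1.55) and Ndufa4l2 (1.49 and 2.00, at 0.36 CPM in WT) rose in both, and the histone demethylase Kdm3a fell in both (-0.81 and -1.10). For Bnip3, 20.3% of the 31-base words occurred in other genes. The Spns1 KO counts dropped to 3 risen without Spns1 KO 3 and to 0 fallen without Spns1 KO 1, 2 or 3 or WT 3 (1 without WT 1, 2 or 4). Car12, a carbonic anhydrase, rose in Spns1 KO (0.94) and was higher there than in FeO by 1.03 (edgeR adjusted p = 0.013), and Mxi1, a MYC antagonist, was lower in Spns1 KO than in FeO by -0.81 (adjusted p = 0.0371). Ddit4, a stress-induced inhibitor of mTORC1 that was singled out after its values were seen, fell by 3.05 on the log2 scale in FeO (standard error 0.82), from 77.6 ± 46.9 CPM in WT to 9.36 ± 4.54 CPM.

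Of 19 matrix and vascular targets tested with edgeR, 0 rose and 3 fell in Spns1 KO (backgrounds 14.0% and 7.55%), and 1 rose and 2 fell in FeO (backgrounds 22.4% and 19.7%). The collagen crosslinking enzyme Lox fell in both (-0.98 and -0.88), the chemokine receptor Cxcr4 fell in Spns1 KO (-0.99), Plod1 rose in FeO (0.55) and the VEGF receptor Kdr fell in FeO (-0.65). Kdr, Pdgfb and P4ha2 were higher in Spns1 KO than in FeO, by 0.72, 0.97 and 0.53 (edgeR adjusted p = 0.0255, 0.0308 and 0.0326), against 6.76% of all genes called higher. That count of 3 was 0 without Spns1 KO 1, with library totals alone and with the 2 groups alone, and 1 with the replicate block and without Spns1 KO 2, FeO 1 or FeO 3. Without Spns1 KO 4 the count that rose in Spns1 KO was 4, and without Spns1 KO 1 or WT 3 the count that fell was 1. The direction of this list against WT depended on the setting. With the length and GC trend removed, 4 rose and 2 fell in Spns1 KO (list median 0.24, against -0.01 in the main fit). In FeO 3 rose and 0 fell (0.12, against -0.22). Over all genes that setting called 15.3% and 33.4% either way. The count that rose in Spns1 KO was also 4 with the 2 groups alone and 3 without the filter. Epo had 0 to 2 counts in a WT library, 1 to 4 in Spns1 KO and 0 to 4 in FeO and was not tested, so erythropoietin could not be compared at this depth. Of 6 iron-handling targets, 2 rose and 1 fell in each model, beside the same backgrounds. Slc11a2 rose in Spns1 KO (0.79) and differed between the models by 1.04 (edgeR adjusted p = 0.00324), Cp rose and Cybrd1 fell in both, and Slc40a1 rose in FeO (0.71, adjusted p = 0.048). When each library was left out, the iron-handling count that rose lay between 1 and 3 for Spns1 KO and between 0 and 2 for FeO, and the count that fell between 0 and 2 and between 1 and 2.

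**Figure D5:**
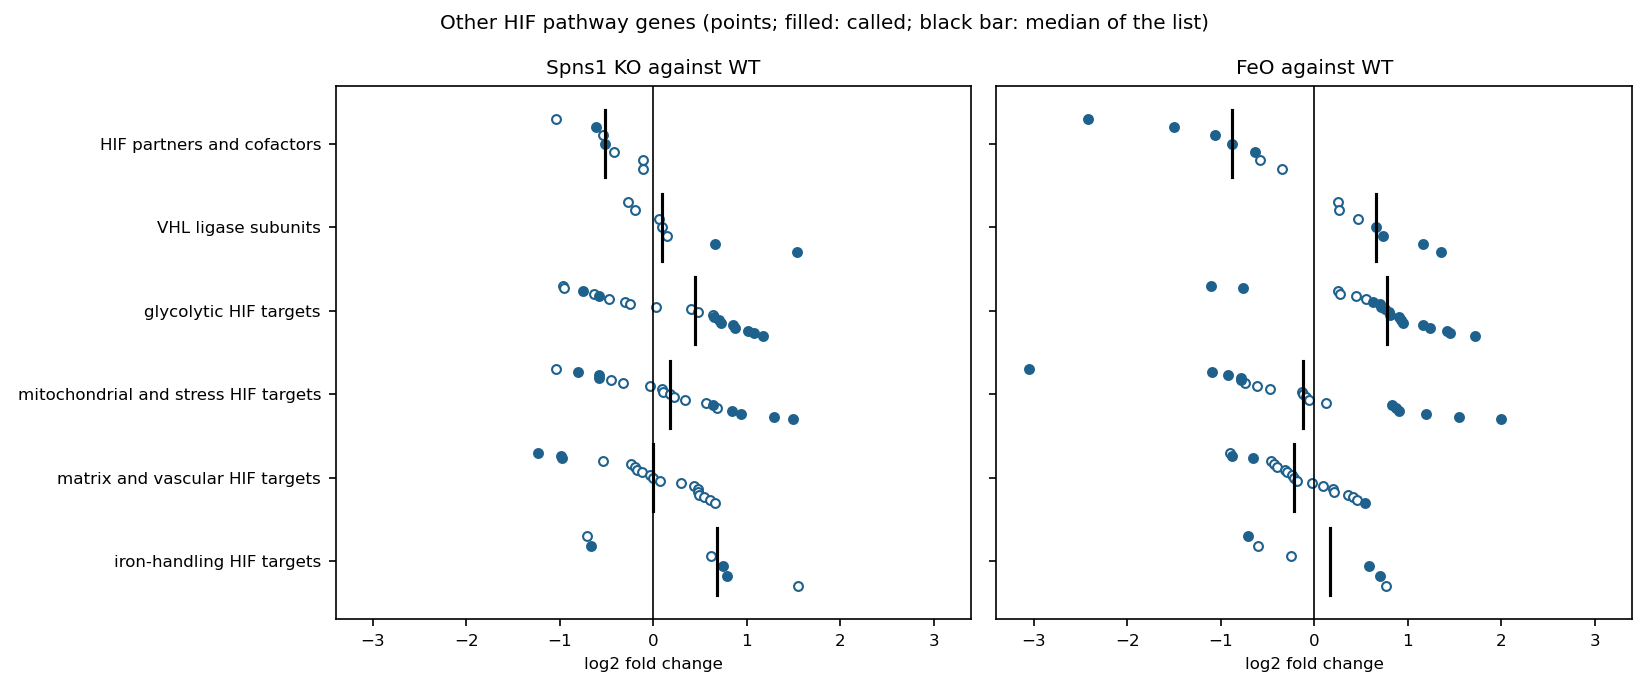
edgeR log2 fold changes against WT of the other HIF pathway genes by list, for Spns1 KO (left) and FeO (right). Each point is a gene, filled where it passed the limits, and black bars are list medians. The list drawn as VHL ligase subunits includes the ubiquitin-conjugating enzymes Ube2d1, Ube2d2a and Ube2d3. The partners and cofactors lie below 0 in both panels (medians -0.52 and -0.88), and most glycolytic targets lie above 0 in FeO (median 0.77).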

How the data were processed

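Tagged RNA was isolated with thiol biotinylation and streptavidin, enriched for poly(A) and sequenced as paired 100-base reads. The authors deposited estimated counts per gene symbol. The submitters' processing notes name bcl2fastq 2.19, kallisto 0.44.0, DESeq2 and the GRCm38 build, whereas the study's methods name STAR and HTSeq, so which counter made the table is not settled, nor is its use of strand. Here the estimated counts were rounded, scaled with TMM factors and, after filterByExpr, tested with edgeR 4.0.16 (quasi-likelihood) in R 4.3.3 in 1 fit of all 13 libraries, in place of the study's DESeq2 but with its limits. Alternatives used DESeq2 1.42.0, limma 3.58.1, other factors, no filter, 2 groups alone, a trend on transcript length and GC content removed, the replicate number as a block and each library left out. The script was tested on counts simulated with the same spread for every gene and no aberrant library, which does not cover the uneven spread of these libraries. The 10 genes and the lists were chosen with earlier results of these data known. From each list the text names up to 4 called genes of smallest adjusted p and those that differed between the models. No gene of the 10 passed in both models, so nearest profiles were not sought. Positions and transcript lengths are those of GENCODE M21 (GRCm38). The labels do not say that replicates came from separate litters. The edgeR p-values set each difference against the spread between libraries within groups. That spread was estimated over all groups in the same fit, with information shared between genes.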

Additional observations from a re-analysis of the deposited data

Results flagged for a closer look

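In 5 of the 30 sets of values (10 genes in 3 groups) 1 library lay beyond Dixon's 95% limit, where chance flags about 1 in 20. These were Hif1a in FeO 1 (312 CPM), Egln1 in WT 4 (55.5 CPM), Egln2 in FeO 2 (75.5 CPM), Egln2 in Spns1 KO 4 (70.4 CPM) and Ndrg1 in Spns1 KO 4 (2450 CPM). Leaving out WT 4 did not end the Egln1 call in FeO. The models differed by test in Epas1 (1.02 on the log2 scale, Spns1 KO against FeO), Vegfa (0.52) and Vhl (-0.46, past the adjusted p and short of the fold limit), each with edgeR's quasi-likelihood test.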

How the results depend on the processing

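Of 300 values of the 10 genes under settings other than leaving out a library, 271 kept their sign and their side of the limits, 17 passed newly, 5 lost their call and 7 changed sign, none of the latter past the limits. The causes were not tested. The count of the 10 genes called in Spns1 KO against WT was 0 and became 1 with the adjusted p alone (Vhl), with upper-quartile factors (Hif1a), with DESeq2 (Hif1a), with the 2 groups alone (Epas1) and with the length and GC trend removed (Epas1, 0.68), and 2 with library totals alone (Hif1a and Vhl). In FeO against WT it was 2 and became 4 with the length and GC trend removed, which added Ankrd37 (-0.98) and Adm (-0.75). With limma-voom Epas1 was added (-0.58). In Spns1 KO against FeO it was 2 and became 1 without the filter, 4 with DESeq2, 0 with the 2 groups alone and 4 with the length and GC trend removed. There limma-voom called 3, and the adjusted p alone added Vhl (-0.46). Leaving out each library gave 0 to 1 in Spns1 KO, 2 to 3 in FeO and 1 to 4 in Spns1 KO against FeO.

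Changes of sign were limited to values within their standard error of 0 in the fit of all 13 libraries. Not all of these were near 0. Ndrg1 was 0.24 in FeO (standard error 0.35) and -0.26 between the models (standard error 0.37). Ndrg1 in Spns1 KO was 0.05 (0.046) without the filter and 0.002 with the 2 groups alone, and ran from -0.107 to 0.171 when libraries were left out. Hif1a in FeO was 0.035 without the filter and 0.366 with the length and GC trend removed (-0.168 to 0.128 when libraries were left out), and Egln2 between the models was -0.004 with that trend removed (-0.028 to 0.303). Ankrd37 in Spns1 KO ran from -0.407 to 0.114, Ndrg1 in FeO from -0.095 to 0.526 and Ndrg1 between the models from -0.522 to 0.080. Shared replicate numbers did not pair the libraries (correlations of same-numbered deviations from -0.296 to 0.256), and with the number as a block the counts were 0, 2 and 1, Ankrd37 in Spns1 KO was 0.016, Ndrg1 in FeO was -0.027, and Vegfa was no longer called between the models.

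Over all genes, library totals alone moved the median log2 fold change to -0.18 in Spns1 KO and -0.07 in FeO and the share of calls that were higher to 45.5% in Spns1 KO (65% with TMM factors) and to 33.9% between the models (45.5% with them), and leaving out the filter raised it to 75.8% in Spns1 KO. The 3550 genes called in Spns1 KO became 2128, 2179, 2035 and 5680 without Spns1 KO 1, 2, 3 and 4 and 2305 without WT 3. The 2447 between the models became 1040 with the 2 groups alone and 1402, 1447 and 1181 without Spns1 KO 1, Spns1 KO 2 and FeO 1. Ankrd37 and Adm, with 20 and 88 counts in their lowest libraries, were the members most limited by depth.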
